A study of Mus musculus with 18 samples.

Results

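The transcription factor ATF4 and the genes of the amino acid response that it drives were followed across purine treatments of mouse T cells, in 41 genes of 6 roles: 7 regulators, 5 effectors, 6 amino acid transporters, 5 enzymes of serine synthesis and mitochondrial one-carbon metabolism, 4 other amino acid enzymes, and 13 cytosolic tRNA synthetases together with the tRNA exporter gene Xpot. The members were taken by name as known genes of the response, and the rule uses names, not measured values, though earlier results of these data were known when they were chosen, which bears on every share of members set against all genes. All 41 were found by symbol among the 52506 genes listed in all 3 count tables, and all 41 passed the filter on low counts in every comparison. As background, cells that lack amino acids, or that accumulate unfolded protein, phosphorylate the translation factor eIF2, which slows most translation but increases translation of the Atf4 mRNA. The ATF4 protein pairs with C/EBP factors and induces amino acid transporters, enzymes that make serine, asparagine and proline, and aminoacyl-tRNA synthetases, which load tRNAs with their amino acids. In growing cells the nutrient-sensing kinase complex mTORC1 also drives ATF4, and stimulated T cells depend on amino acid uptake and one-carbon metabolism to grow. Because ATF4 itself is set largely by translation, its mRNA level need not follow its activity.

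RNA came from DNT cells, that is double negative T cells without the coreceptors CD4 and CD8, made by converting CD4+ T cells of wild type spleen and lymph node. Every culture, controls included, had received antibodies to CD3 and CD28. There were 18 libraries in 3 sets, each a count table of its own with 3 libraries per group, and each ligand acted for 6 h. In set 1, WTATPgs cells received 400 µM ATPgs, an ATP analogue that the series describes as non-hydrolysable, and WT cells received no ligand. In set 2, ADO cells received 400 µM adenosine, and the cells of the group named DNT received none. In set 3, RA cells received 400 µM adenosine with 250 nM of an inhibitor of the adenosine receptor A2aR, and R cells received the inhibitor without adenosine. Nothing in the labels says whether replicate libraries are from different cultures or animals; p-values therefore cover only the spread between these libraries, which may be technical. The comparisons ask which of the genes an ATP-type ligand and adenosine changed, and whether the adenosine effect depended on A2aR.

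Total counts per library lay between 20156082 and 24331577, and the 41 genes took 1.11% to 1.14% of them in WTATPgs and 1.17% to 1.18% in WT, 0.946% to 0.952% in ADO and at least 1.09% in DNT, and 0.754% to 0.781% in RA and 0.581% to 0.931% in R. All 10 T cell marker genes were detected in every library. With ATPgs 0 of them were higher and 2 lower (Cd5, Lat), or 20% lower, near the 19.4% of all genes. With adenosine 5 were higher (50%, against 25.5% of all genes) and 2 lower (20%, against 24.6%). Cd2 changed by 0.63 ± 0.03 and Lat by −0.44 ± 0.03 on the log2 scale with adenosine. Under inhibitor 0 passed the threshold, against 1.14% of all genes. Group means ran from 0.413 to 9.33 CPM, the usual abundance unit scaled to library size, for Cd4, from 5.66 to 23.5 for Cd8a and from 1.24 to 2.39 for Cd8b1. CPM here is scaled with the TMM factor of the library. WTATPgs replicate 3 stood apart: it differed from the other WTATPgs libraries by a chi-square of 25.8 and 25.9 per gene, against 1.65 between replicates 1 and 2. Of the 14 tested genes of macrophages, monocytes and neutrophils, 6 rose with ATPgs (42.9%, against 17.7% of all genes) and 0 fell (against 19.4%). The summed level of these markers was 389 to 433 CPM in WTATPgs and 208 to 215 CPM in WT. With adenosine 4 of 7 tested rose (57.1%, against 25.5% of all genes) and 1 fell (14.3%, against 24.6%). The sum was 120.5 to 128 CPM in ADO and at most 88.2 CPM in DNT. With inhibitor 0 of 6 passed, against 1.14% of all genes, and the sum was 178 to 193 CPM in RA and 147 to 252 CPM in R. In each of the 3 sets most of the sum was Ccr2, which T cells also express. Ccr2 had 225, 223 and 341 CPM in WTATPgs and 167, 163 and 167 CPM in WT. It had 104.7, 98.8 and 105.1 CPM in ADO, against 72.9, 74.2 and 72.2 CPM in DNT. In set 3 it had 134, 143 and 145 CPM in RA, against 143, 107 and 212 CPM in R. The neutrophil gene S100a9 had 69.1, 69.0 and 9.81 CPM in WTATPgs and 16.3, 13.9 and 14.1 CPM in WT. The summed B cell markers were 31.3 to 99.2 CPM in WTATPgs and 52.9 to 58.9 CPM in WT, with Ms4a1 at 0 in WTATPgs replicate 3. In the other sets the B cell sum was lower with ligand and did not overlap, 29.1 to 31.3 CPM in ADO and 34.9 to 39.2 CPM in DNT, and 52.3 to 63.7 CPM in RA and 66.9 to 82.9 CPM in R. In the other sets the neutrophil gene Elane was at 0 in every library and S100a8 and S100a9 at no more than 0.219 CPM, but Ly6g, another neutrophil gene, had 25.7, 31.7 and 28.1 CPM in RA and 33.3, 23.0 and 26.0 CPM in R, against 1.02 to 1.58 CPM in set 2. The R libraries differed widely from each other (chi-square per gene 44.5 to 213), and R replicate 3 had the largest shares of mitochondrially encoded RNA (5.47%) and of ribosomal protein RNA (16.3%) of the 18 libraries. With ATPgs the mitochondrial share was 2.01% to 2.19% in WTATPgs and 1.78% to 1.79% in WT, and the ribosomal protein share 4.85% to 5.08% in WTATPgs and 5.28% to 5.40% in WT, without overlap. The part of these differences in the results below was not tested, and in bulk RNA fewer cells of a type and less RNA per cell cannot be told apart.

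Several of the genes carry, near their start sites, the letters TGATGNAA that ATF4 binds with a C/EBP partner. RefSeq promoter sequences (GRCm38.p6, from 250 bases before to 50 bases after each start) were matched for 32 of the 41 genes; Slc7a5, Slc1a5, Cth, Nars, Wars, Mars, Lars, Vars and Cars had none in the table. On either strand, TGATGNAA stood in 13 of the 32 (40.6%), against 1219 of the 27025 genes with a promoter (4.51%) and 1304 of their 32851 promoters (3.97%). It was found in 2 of 7 regulators (Nupr1, Trib3), 2 of 5 effectors (Chac1, Vldlr), 2 of 4 transporters (Slc1a4, Slc7a11), 0 of 5 serine and one-carbon enzymes, 2 of 3 other enzymes (Asns, Pycr1) and 5 of 8 synthetases and Xpot (Aars, Gars, Tars, Yars, Iars). The members had been picked as ATF4 genes, so this share is a description. The full cyclic AMP response element TGACGTCA stood in 1 of the 32, Ppp1r15a, against 2.03% of genes, and its 5-letter form TGACG in 13 (40.6%), against 23% of genes. The short form is contained in the full one, and neither is contained in TGATGNAA. A match of letters is not a binding site.

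Promoters of 6 genes are given because their mRNAs show the range of responses described further on: Slc7a11, the largest fall with adenosine, Trib3 and Aars, which moved in opposite directions with the 2 ligands, Asns, the classical ATF4 target, Yars, a synthetase that fell with both, and Ppp1r15a, which rose with ATPgs and carries the cyclic AMP element. Capitals mark TGATGNAA on either strand in the first 5 and TGACGTCA in Ppp1r15a, and each runs 5′ to 3′ along its gene. The windows are Slc7a11 at chr3:50443564-50443863, minus strand, Trib3 at chr2:152344011-152344310, minus strand, Asns at chr6:7693160-7693459, minus strand, Aars at chr8:111033592-111033891, plus strand, Yars at chr4:129189653-129189952, plus strand and Ppp1r15a at chr7:45526219-45526518, minus strand.
Slc7a11: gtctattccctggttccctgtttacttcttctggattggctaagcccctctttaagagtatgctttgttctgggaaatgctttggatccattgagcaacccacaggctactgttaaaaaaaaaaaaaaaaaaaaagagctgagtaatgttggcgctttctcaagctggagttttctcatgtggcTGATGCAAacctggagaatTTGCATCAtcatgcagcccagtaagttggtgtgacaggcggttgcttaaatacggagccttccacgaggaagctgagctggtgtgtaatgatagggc
Trib3: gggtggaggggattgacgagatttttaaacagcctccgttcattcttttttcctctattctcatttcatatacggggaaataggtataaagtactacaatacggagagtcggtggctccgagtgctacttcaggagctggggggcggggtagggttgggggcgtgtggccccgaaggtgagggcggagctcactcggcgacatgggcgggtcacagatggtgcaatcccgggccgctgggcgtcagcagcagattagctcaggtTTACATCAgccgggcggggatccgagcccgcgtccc
Asns: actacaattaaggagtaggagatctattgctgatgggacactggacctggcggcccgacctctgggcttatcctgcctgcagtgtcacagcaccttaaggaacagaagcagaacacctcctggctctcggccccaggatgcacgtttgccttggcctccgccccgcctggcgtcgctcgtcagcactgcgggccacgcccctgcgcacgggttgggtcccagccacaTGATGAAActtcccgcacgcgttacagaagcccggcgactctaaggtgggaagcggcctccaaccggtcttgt
Aars: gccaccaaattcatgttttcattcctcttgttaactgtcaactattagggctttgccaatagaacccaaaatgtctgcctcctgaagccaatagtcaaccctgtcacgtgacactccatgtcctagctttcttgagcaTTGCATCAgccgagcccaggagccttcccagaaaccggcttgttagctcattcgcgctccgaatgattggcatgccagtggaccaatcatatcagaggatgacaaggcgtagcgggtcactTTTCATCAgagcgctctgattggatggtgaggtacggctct
Yars: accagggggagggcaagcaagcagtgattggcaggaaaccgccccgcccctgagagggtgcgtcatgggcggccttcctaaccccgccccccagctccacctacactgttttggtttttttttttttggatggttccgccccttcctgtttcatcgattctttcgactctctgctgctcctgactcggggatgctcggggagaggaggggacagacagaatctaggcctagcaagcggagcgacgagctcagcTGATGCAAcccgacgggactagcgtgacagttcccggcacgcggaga
Ppp1r15a: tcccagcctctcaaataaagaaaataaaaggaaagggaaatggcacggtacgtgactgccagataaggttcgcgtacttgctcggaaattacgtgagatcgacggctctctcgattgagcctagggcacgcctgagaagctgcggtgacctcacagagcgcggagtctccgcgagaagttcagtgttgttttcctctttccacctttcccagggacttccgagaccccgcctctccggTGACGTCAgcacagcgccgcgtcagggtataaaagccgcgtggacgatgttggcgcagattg
Slc7a11 held 2 copies, 66 and 47 bases before its start and on opposite strands, and Aars also held 2, whereas Asns held 1 whose first base lay 23 bases before the start.

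The levels of the genes in control libraries without ligand spanned a wide range. Per kilobase of transcript, which allows levels of different genes to be compared, the glutamine transporter gene Slc1a5 was highest in DNT libraries at 395 ± 4.15 CPM per kb (mean ± SD, n = 3), followed by Atf4 at 320.1 ± 4.28 and Slc3a2 at 274 ± 2.18. These neighbours differed by far more than their SDs, whereas Shmt2 (233 ± 1.25) and Slc7a5 (229 ± 4.16) differed by no more than the larger SD. The highest synthetase was Nars at 178 ± 1.61 CPM per kb and the lowest Cars at 46.8 ± 0.387. The cystine transporter gene Slc7a11 had 3.70 ± 0.145 and the lipoprotein receptor gene Vldlr 0.208 ± 0.0117 CPM per kb, the lowest of the 41. In WT libraries the same 3 genes led, with Slc1a5 at 450.1 ± 8.96, Slc3a2 at 354 ± 7.05 and Atf4 at 340.4 ± 1.91 CPM per kb. In R libraries, which had the inhibitor but no adenosine, the order differed, with Atf4 at 358 ± 47.1, Phgdh at 287 ± 5.15 and Slc1a5 at 103 ± 25.3 CPM per kb.

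With ATPgs 5 of 7 regulators and 2 of 5 effectors rose, whereas 4 of 5 serine and one-carbon enzymes and 9 of 14 synthetases and Xpot fell. Of the 41 genes, 9 rose and 18 fell with ATPgs and 14 did not pass (edgeR quasi-likelihood test, Benjamini-Hochberg adjusted p under 0.05 over all genes). The 9 are 22.0% of the members, against 17.7% of the 15124 genes tested that rose, and the 18 are 43.9%, against 19.4% of genes that fell; either way 65.9% of members passed, against 37.1% of genes. The median log2 fold change was −0.07 for the members and −0.00062 for all genes. All 3 WTATPgs libraries lay above all 3 WT libraries for 12 members and below them for 21, against 24.5% and 26.8% of genes. Without WTATPgs replicate 3 the counts were 12 higher and 26 lower, against 4186 and 4195 of 15568 genes. With all 18 libraries in a single fit they were 7 and 7, against 1801 and 1498 of 16073 genes. A fit with replicate 3 as the only WTATPgs library was chosen after the data were seen and assumes it to vary like the WT libraries. It gave a median log2 fold change of −0.04 for the members and −0.0069 for all genes.

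Adenosine lowered nearly the whole set by modest amounts. Of the 41 genes 1 rose, 33 fell and 7 did not pass. The falls are 80.5% of the members, against 24.6% of the 14512 genes tested, and the single rise is 2.44%, against 25.5%; in either direction 82.9% of members and 50.2% of genes passed. The median log2 fold change was −0.25 for the members and 0.0022 for all genes, and the falls lay between 0.12 and 0.76 on the log2 scale. All ADO libraries were above all DNT libraries for 1 member and below them for 32, against 28.2% and 27.5% of genes. Adenosine in the presence of the inhibitor gave 0 members past the threshold in either direction, against 1.14% of 12873 genes (0.287% higher and 0.855% lower), with a member median of −0.12 against −0.04 for all genes. Of the members 5 had an unadjusted p under 0.05 by edgeR. DESeq2 called 0, with 6 under that p, against 181 genes higher and 352 lower of 12873. All 3 RA libraries lay below all 3 R libraries for 7 members and above them for 3, against 10.7% and 10.1% of genes. Without R replicate 3, 5 members fell and 0 rose, against 994 and 725 of 13181 genes. In a single fit of all 18 libraries, adenosine gave 2 rises and 16 falls, against 1439 and 870 of 16073 genes. Adenosine with inhibitor gave 2 and 3 in that fit, against 885 and 893 genes.

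**Figure D1:**
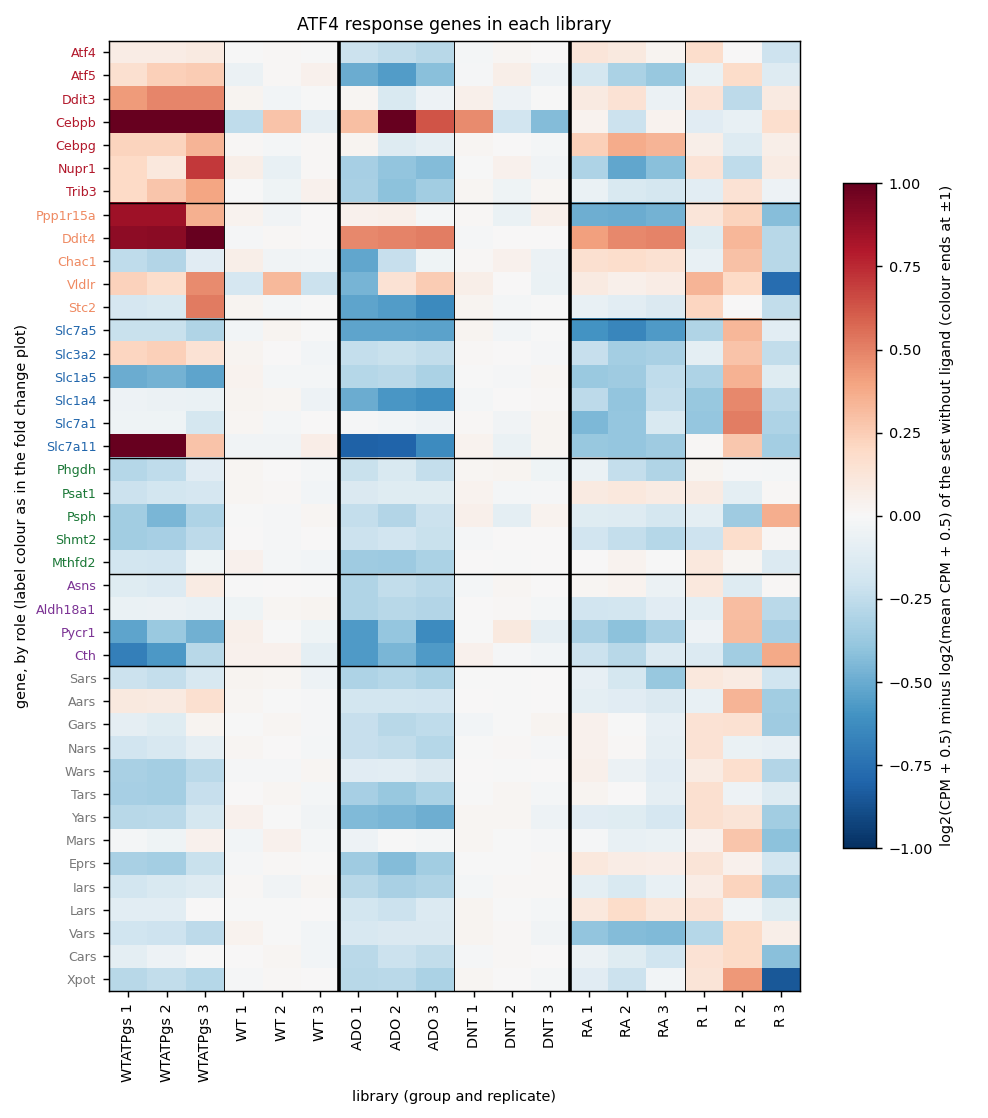
Level of each of the 41 genes (down) in each of the 18 libraries (across) as log2(CPM + 0.5) minus the log2 of the mean (CPM + 0.5) of its set's group without added adenosine or ATPgs; red is higher and blue lower, and colours end at a difference of 1. ADO columns are blue for nearly all genes except Ddit4 and Cebpb, while WTATPgs columns are red for the regulators at the top and mostly blue further down, and the R columns differ among themselves.

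Atf4 itself showed the contrast between the ligands at a small size. Atf4 had 619, 617 and 627 CPM in WTATPgs libraries, against 585, 591 and 586 CPM in WT libraries. All WTATPgs libraries were above all WT libraries, but the effect of 0.08 ± 0.03 (log2 fold change ± SE; each group has n = 3, here and below) did not pass (adjusted p = 0.0599; 0.07, adjusted p = 0.00305 without WTATPgs replicate 3). Atf4 had 476, 466 and 456 CPM in ADO libraries, against 544, 559 and 553 CPM in DNT libraries. Here the groups did not overlap in the other direction, and Atf4 fell by 0.24 ± 0.02 (adjusted p = 9.16e-15). Atf4 had 671, 661 and 629 CPM in RA libraries, against 699, 618 and 536 CPM in R libraries. With the inhibitor the groups overlapped (0.08 ± 0.18, adjusted p = 0.92), and the value was −0.01 without R replicate 3. Atf4 lies on chromosome 15, 80255184 to 80257541 (GRCm38, GENCODE M21).

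Among the other regulators, 5 rose with ATPgs and 0 fell. Ddit3, the gene of the stress factor CHOP, which is induced downstream of ATF4, rose most among those above 5 CPM. Ddit3 had 59.8, 62.5 and 62.4 CPM in WTATPgs libraries, against 45.3, 43.5 and 44.2 CPM in WT libraries. No library of either group reached the other, and Ddit3 rose by 0.47 ± 0.04 (adjusted p = 0.000105). Its adenosine effect was −0.06 ± 0.06 (adjusted p = 0.395). Ddit3 shares 68 exon bases with Mars on the opposite strand and 105 with another gene entry of the same symbol, and whether the counting used strand is not given in the sources used here, so both counts are uncertain. Cebpg, a C/EBP partner of ATF4, rose by 0.26 ± 0.05, Trib3, a pseudokinase that feeds back on ATF4, rose by 0.30 ± 0.06, and Cebpb, another C/EBP gene, rose by 1.31 ± 0.19 with ATPgs. Cebpb had 4.76, 4.76 and 4.76 CPM in WTATPgs libraries, against 1.52, 2.44 and 1.77 CPM in WT libraries, a low level beside an antisense overlap of 312 exon bases with Tmem189.

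Atf5, a relative of ATF4 under the same translational control, went up with one ligand and down with the other. It rose by 0.22 ± 0.06 with ATPgs (adjusted p = 0.0141), a call lost without WT replicate 1 or 2 (adjusted p = 0.0741 and 0.0546). Atf5 had 25.5, 24.4 and 26.8 CPM in ADO libraries, against 35.8, 37.6 and 34.9 CPM in DNT libraries. The groups did not overlap and Atf5 fell by 0.50 ± 0.06 (adjusted p = 2.98e-10). Trib3, whose promoter holds the ATF4 letters shown above, fell by 0.36 ± 0.05 with adenosine, and Nupr1, which encodes a small stress-induced chromatin protein, fell by 0.41 ± 0.11. With ATPgs Nupr1 had 51.8, 48.4 and 73.6 CPM in WTATPgs libraries, against 46.9, 42.6 and 45.2 CPM in WT libraries, and the effect of 0.37 ± 0.17 did not pass, the level of replicate 3 being the highest. Without replicate 3 it was 0.15 ± 0.05, adjusted p = 0.00923. The effects of adenosine on Cebpb (0.71 ± 0.35) and Cebpg (−0.06 ± 0.04) did not pass, though without DNT replicate 1 the effect on Cebpb was 1.05 (adjusted p = 0.00473).

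The effectors held the only member that rose with both ligands. Ddit4 encodes REDD1, which restrains mTORC1 under stress. Ddit4 had 199, 199.8 and 274 CPM in WTATPgs libraries, against 106, 107 and 107 CPM in WT libraries. Ddit4 had 169, 171 and 172 CPM in ADO libraries, against 119, 121 and 121 CPM in DNT libraries. In both sets every treated library was above every control library, by 1.07 ± 0.13 with ATPgs (adjusted p = 0.00177) and 0.50 ± 0.03 with adenosine (adjusted p = 1.03e-20). Ddit4 had 74.5, 78.0 and 78.9 CPM in RA libraries, against 51.3, 70.3 and 46.0 CPM in R libraries. RA libraries were above R libraries too, with an effect of 0.46 ± 0.19 that did not pass (adjusted p = 0.33). Ddit4 lies on chromosome 10, 59949669 to 59951834.

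Ppp1r15a encodes GADD34, the phosphatase subunit that restores translation by removing phosphate from eIF2. Ppp1r15a had 151, 151 and 107 CPM in WTATPgs libraries, against 85.7, 81.8 and 83.8 CPM in WT libraries. It rose by 0.71 ± 0.14 with ATPgs (adjusted p = 0.00986), and WTATPgs replicate 3 was the lowest of its group though above every WT library. Ppp1r15a had 65.8, 66.1 and 63.1 CPM in ADO libraries, against 64.3, 60.9 and 66.2 CPM in DNT libraries. The adenosine groups overlapped (0.03 ± 0.04, adjusted p = 0.643). Ppp1r15a had 41.7, 41.3 and 42.1 CPM in RA libraries, against 63.8, 68.5 and 43.4 CPM in R libraries. With the inhibitor all RA libraries were below all R libraries, but the effect of −0.49 ± 0.19 did not pass, and without R replicate 3 it was −0.67 ± 0.11, adjusted p = 0.00244.

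Stc2 encodes a secreted stanniocalcin induced by stress. Stc2 had 30.4, 29.8 and 28.1 CPM in ADO libraries, against 44.8, 43.3 and 43.8 CPM in DNT libraries. Every ADO library was below every DNT library, and Stc2 fell by 0.58 ± 0.05 with adenosine (adjusted p = 1.68e-13). Stc2 had 37.5, 37.8 and 60.6 CPM in WTATPgs libraries, against 42.9, 41.5 and 42.0 CPM in WT libraries. With ATPgs the 3 libraries disagreed, replicates 1 and 2 being below and replicate 3 above all WT libraries, so that the effect was 0.11 ± 0.20 with all of them and did not pass, −0.17 ± 0.05, adjusted p = 0.00565 without replicate 3, and 0.55 ± 0.06, adjusted p = 2.87e-15 with replicate 3 alone. Chac1, which encodes a glutathione-degrading enzyme, fell by 0.22 ± 0.07 with ATPgs and fell by 0.26 ± 0.09 with adenosine. The ATPgs call on Chac1 was lost without any 1 WT library or without WTATPgs replicate 1 or 2 (adjusted p = 0.0669 to 0.155), and the adenosine call without DNT replicate 1 or 2 or ADO replicate 1 or 2 (0.0899 to 0.135). Vldlr passed with neither ligand (0.36 ± 0.23 and 0.01 ± 0.24).

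**Figure D2:**
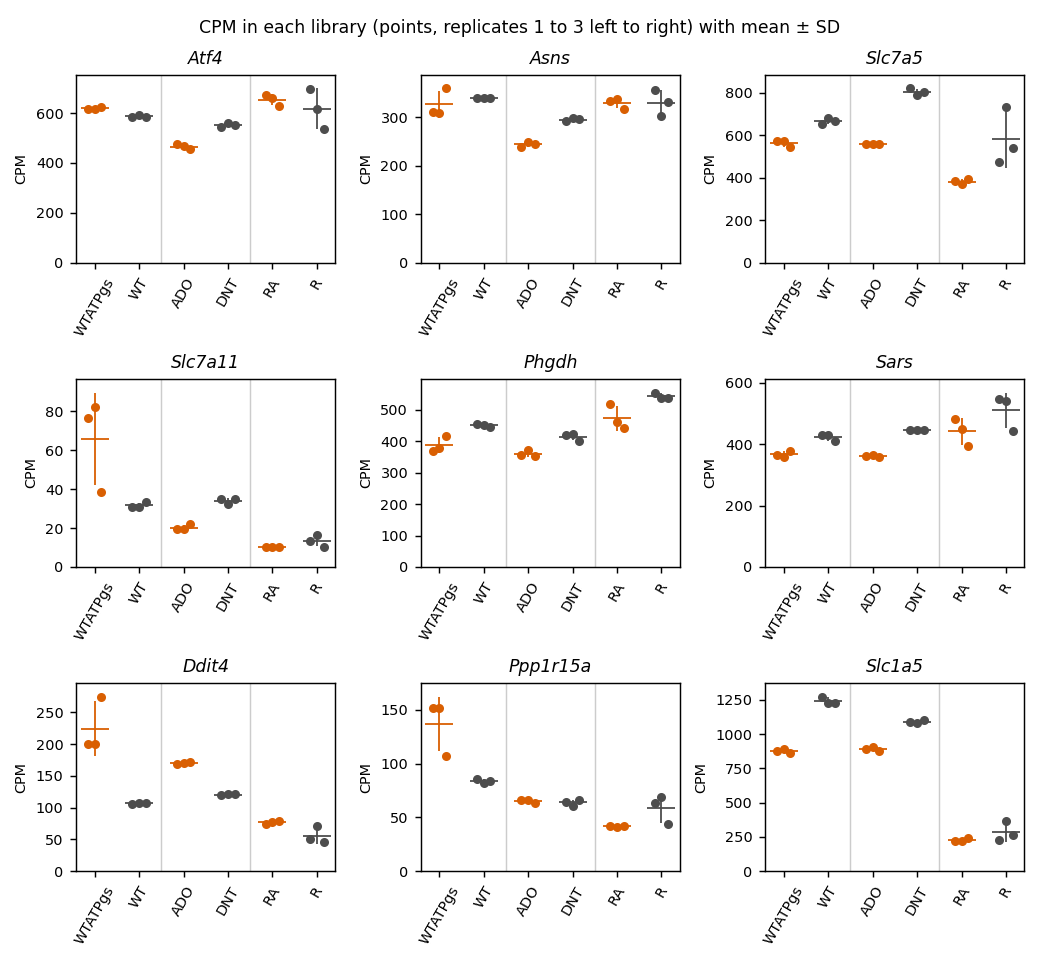
CPM (vertical axis, starting at 0) of 9 genes in each library, with points for replicates 1 to 3 from left to right in each group and a bar for the mean with its SD; orange groups received ATPgs or adenosine and grey groups did not. Slc7a11 reaches 82.3 CPM in WTATPgs and lies between 19.2 and 21.8 CPM in ADO, Ddit4 is higher with either ligand, and Slc7a5 is lower in each orange group than in its grey partner.

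The transporters gave the widest gap between the ligands, in Slc7a11, which imports cystine in exchange for glutamate and so feeds glutathione synthesis. Slc7a11 had 19.2, 19.4 and 21.8 CPM in ADO libraries, against 35.0, 32.6 and 34.7 CPM in DNT libraries. All ADO libraries were below all DNT libraries, and Slc7a11 fell by 0.76 ± 0.06 (adjusted p = 8.22e-15), the largest fall of the 41 genes. Slc7a11 had 76.7, 82.3 and 38.7 CPM in WTATPgs libraries, against 30.9, 30.9 and 33.3 CPM in WT libraries. All WTATPgs libraries were above all WT libraries, but replicate 3 was close to WT and the effect of 1.05 ± 0.31 just missed the threshold (adjusted p = 0.0532). It was 1.32 ± 0.05, adjusted p = 7.64e-30 without replicate 3, 0.32 ± 0.07, adjusted p = 0.000104 with replicate 3 alone, and had adjusted p = 0.00533 by DESeq2. Slc7a11 had 10.2, 10.1 and 10.3 CPM in RA libraries, against 13.4, 16.2 and 10.5 CPM in R libraries. In set 3 the level was low and the fold change of −0.39 ± 0.19 did not pass (adjusted p = 0.458; −0.54 ± 0.15, adjusted p = 0.0308 without R replicate 3). Slc7a11 lies on chromosome 3, 49892526 to 50443614, and its promoter, shown above, held 2 copies of TGATGNAA.

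Slc7a5 and Slc3a2 encode the light and heavy chain of the transporter LAT1, which brings leucine and other large neutral amino acids into activated T cells. Slc7a5 had 559, 559 and 557 CPM in ADO libraries, against 820.5, 791 and 805 CPM in DNT libraries. Slc7a5 had 571, 573 and 543 CPM in WTATPgs libraries, against 655, 681 and 667 CPM in WT libraries. Neither pair of groups overlapped, and Slc7a5 fell by 0.53 ± 0.02 with adenosine (adjusted p = 5.2e-29) and by 0.25 ± 0.04 with ATPgs (adjusted p = 0.000899). Slc7a5 had 384, 370.0 and 392 CPM in RA libraries, against 472, 732 and 539 CPM in R libraries. The RA libraries were again all below the R libraries, R replicate 2 being far above the rest, and the effect of −0.61 ± 0.20, the largest of the members in that comparison, did not pass (adjusted p = 0.224; −0.66 ± 0.16, adjusted p = 0.0166 without R replicate 3). The partner chain moved with it under adenosine but not under ATPgs, since Slc3a2 rose by 0.20 ± 0.04 with ATPgs (adjusted p = 0.0028) and fell by 0.23 ± 0.02 with adenosine (adjusted p = 2.17e-14). Slc7a5 lies on chromosome 8, 121881150 to 121907694.

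Slc1a5 encodes the glutamine transporter ASCT2, the most abundant of the 41 mRNAs per length in WT and DNT libraries. Slc1a5 had 879.7, 894 and 863 CPM in WTATPgs libraries, against 1273, 1229.7 and 1229.6 CPM in WT libraries. The WTATPgs libraries were all lower, and Slc1a5 fell by 0.50 ± 0.03 (adjusted p = 1.19e-05), to 70.6% of the WT level. With adenosine it fell by 0.29 ± 0.02. Its relative Slc1a4, a transporter of alanine, serine and cysteine, had the reverse order of effects. Slc1a4 had 54.1, 50.9 and 49.8 CPM in ADO libraries, against 75.3, 76.7 and 77.3 CPM in DNT libraries. Those groups did not overlap, and Slc1a4 fell by 0.57 ± 0.04 (adjusted p = 1.46e-16), whereas with ATPgs the value was −0.06 ± 0.04 (adjusted p = 0.289). The arginine and lysine transporter gene Slc7a1 passed with neither ligand (−0.09 ± 0.04 with ATPgs and −0.03 ± 0.02 with adenosine), and with ATPgs it was −0.05 (adjusted p = 0.0362) without WTATPgs replicate 3.

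The enzymes of serine synthesis and mitochondrial one-carbon metabolism fell with both ligands, 4 of 5 with ATPgs and 5 of 5 with adenosine. Phgdh encodes the first enzyme of the serine pathway. Phgdh had 369.8, 378 and 417 CPM in WTATPgs libraries, against 457, 453 and 444 CPM in WT libraries. Phgdh had 356, 373 and 352 CPM in ADO libraries, against 419.8, 423 and 403 CPM in DNT libraries. The groups did not overlap in either set, and Phgdh fell by 0.22 ± 0.05 with ATPgs (adjusted p = 0.00765) and by 0.20 ± 0.02 with adenosine (adjusted p = 1.14e-10). The ATPgs call was lost without WTATPgs replicate 1 or 2 (adjusted p = 0.062 and 0.0612). Phgdh had 519, 461 and 442 CPM in RA libraries, against 555, 539 and 538 CPM in R libraries. The RA libraries were below the R libraries, with an effect of −0.20 ± 0.16 that did not pass (adjusted p = 0.744). Phgdh lies on chromosome 3, 98313170 to 98339990.

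Of the later enzymes of that pathway, Psph, which releases serine from phosphoserine, changed most with ATPgs. Psph had 70.3, 64.9 and 72.3 CPM in WTATPgs libraries, against 89.0, 88.7 and 90.6 CPM in WT libraries. No WTATPgs library reached WT, and Psph fell by 0.37 ± 0.05 (adjusted p = 0.0006), though it shares 452 exon bases with an antisense transcript of Cct6a, which makes its count uncertain. With adenosine Psph fell by 0.25 ± 0.05. Psat1, the transaminase before it, fell by 0.19 ± 0.03 with ATPgs and fell by 0.13 ± 0.02 with adenosine, and Shmt2, which turns serine into glycine and a one-carbon unit in mitochondria, fell by 0.31 ± 0.03 and fell by 0.21 ± 0.02. Mthfd2, which oxidises that one-carbon unit, fell by 0.35 ± 0.02 with adenosine (adjusted p = 1.92e-17) and had −0.14 ± 0.05 with ATPgs, past the threshold only without WTATPgs replicate 3 (−0.19 ± 0.03, adjusted p = 7.28e-09) among the leave-one-out fits. No promoter of these 5 genes held TGATGNAA.

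Asns, the asparagine synthetase gene and a classical ATF4 target, fell with adenosine. Asns had 239.8, 249 and 245 CPM in ADO libraries, against 292, 299 and 296 CPM in DNT libraries. All ADO libraries were below all DNT libraries, and Asns fell by 0.27 ± 0.02 (adjusted p = 2.69e-14). Asns had 312, 309.9 and 359.8 CPM in WTATPgs libraries, against 340.0, 340.3 and 340.0 CPM in WT libraries. With ATPgs replicates 1 and 2 lay below and replicate 3 above every WT library, so the effect over the 3 was −0.06 ± 0.06 (adjusted p = 0.485). It was −0.14 ± 0.02, adjusted p = 2.57e-06 without replicate 3 and 0.11 ± 0.03, adjusted p = 0.00212 with replicate 3 alone, so the direction turned on that library. Asns had 335, 338 and 318 CPM in RA libraries, against 356, 303 and 332 CPM in R libraries. The set 3 groups overlapped (−0.0011 ± 0.16). Asns lies on chromosome 6, 7675169 to 7693254.

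The enzyme genes Pycr1 and Cth fell with both ligands. Pycr1 makes proline in mitochondria. Pycr1 had 14.0, 15.6 and 14.4 CPM in WTATPgs libraries, against 21.1, 20.3 and 19.7 CPM in WT libraries. Pycr1 had 13.4, 15.3 and 12.9 CPM in ADO libraries, against 20.1, 21.6 and 18.9 CPM in DNT libraries. No treated library reached its controls in either set, and Pycr1 fell by 0.47 ± 0.08 with ATPgs (adjusted p = 0.00152) and fell by 0.54 ± 0.08 with adenosine (adjusted p = 1.12e-07). Cth makes cysteine from cystathionine. Cth had 17.4, 18.9 and 23.2 CPM in WTATPgs libraries, against 29.2, 29.2 and 26.4 CPM in WT libraries. Cth had 15.5, 16.7 and 15.5 CPM in ADO libraries, against 23.9, 23.0 and 22.7 CPM in DNT libraries. These groups did not overlap either, and Cth fell by 0.51 ± 0.11 with ATPgs (adjusted p = 0.00615) and fell by 0.54 ± 0.07 with adenosine (adjusted p = 6.54e-09). Aldh18a1, at the head of the proline pathway, fell by 0.29 ± 0.02 with adenosine and had −0.07 ± 0.03 with ATPgs (adjusted p = 0.17; adjusted p = 0.0271 without WTATPgs replicate 3).

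The tRNA synthetases moved together with adenosine. Of 13 synthetases and Xpot, 13 fell and 0 rose, leaving Mars (−0.03 ± 0.03, adjusted p = 0.422). Their summed level was 4011, 3972 and 3987 CPM in ADO libraries, against 4765, 4775 and 4742 CPM in DNT libraries, groups far apart beside their spread. The falls ran from 0.12 for the tryptophanyl enzyme Wars to 0.46 for the tyrosyl enzyme Yars, with the glutamyl-prolyl enzyme Eprs (−0.38 ± 0.02) and the threonyl enzyme Tars (−0.34 ± 0.02) next to Yars. Sars, the seryl-tRNA synthetase gene, was typical. Sars had 360.1, 365 and 359 CPM in ADO libraries, against 446, 446 and 447 CPM in DNT libraries. The groups did not overlap, and Sars fell by 0.30 ± 0.02 (adjusted p = 8.04e-18). The remaining falls were Aars (−0.19 ± 0.02), Gars (−0.25 ± 0.02), Nars (−0.25 ± 0.02), Iars (−0.30 ± 0.02), Lars (−0.18 ± 0.03), Vars (−0.15 ± 0.02), Cars (−0.25 ± 0.03) and Xpot (−0.29 ± 0.02).

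With ATPgs 9 of these 14 genes fell and 1 rose. Sars had 365, 359 and 379 CPM in WTATPgs libraries, against 431, 429 and 409.6 CPM in WT libraries. The groups did not overlap, and Sars fell by 0.20 ± 0.04 (adjusted p = 0.00325). Wars had 213, 210.0 and 221 CPM in WTATPgs libraries, against 265, 264 and 270.4 CPM in WT libraries. Wars, the largest fall among them, fell by 0.31 ± 0.04 (adjusted p = 0.000274). Next came Tars (−0.30 ± 0.04), Eprs (−0.29 ± 0.04), Xpot (−0.27 ± 0.03), Yars (−0.24 ± 0.04), Vars (−0.22 ± 0.04), Iars (−0.15 ± 0.03) and Nars (−0.15 ± 0.04). The calls on Iars and Nars were lost without WTATPgs replicate 1 (adjusted p = 0.0714 and 0.117) or 2 (0.0581 and 0.0992), and that on Nars also without WT replicate 1 or 2 (0.0655 and 0.0551). The alanyl enzyme gene Aars rose by 0.12 ± 0.03 (adjusted p = 0.0244), a small rise lost without any 1 WT library or WTATPgs replicate 1 (adjusted p = 0.054 to 0.122), and Aars shares 1326 exon bases with Exosc6 on the same strand. Gars, Mars, Lars and Cars did not pass (−0.07 to −0.0027). Without WTATPgs replicate 3, Gars (−0.11, adjusted p = 2.25e-05), Lars (−0.11, adjusted p = 0.000258) and Cars (−0.08, adjusted p = 0.0151) fell. In WTATPgs replicate 3 the summed level was 4652 CPM, against 4429 CPM in each of the other WTATPgs libraries and 4965 to 5034 CPM in WT libraries.

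Under the inhibitor none of the 14 genes passed. Sars had 482, 451 and 393 CPM in RA libraries, against 548, 539.8 and 444 CPM in R libraries. The groups overlapped, with an effect of −0.21 ± 0.18 (adjusted p = 0.752). Summed, the 14 had 3425, 3326 and 3196 CPM in RA libraries, against 3710, 3780 and 2963 CPM in R libraries, where R replicate 3 was the lowest. Vars was the one with all RA libraries below all R libraries (−0.42 ± 0.17, adjusted p = 0.341). Xpot had 141, 131 and 149 CPM in RA libraries, against 167, 205 and 84.4 CPM in R libraries. Its effect was −0.12 ± 0.28 with all libraries and −0.41 ± 0.12, adjusted p = 0.0437 without R replicate 3, and 0.15 without R replicate 2.

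In the other roles too, none passed with adenosine under the inhibitor. All 6 transporters had negative values, between −0.61 and −0.30, and the 4 other enzymes had values between −0.36 and −0.0011, of which that of Asns was 0.13 when scaled to library size only. The regulators ran from −0.43 for Nupr1 to 0.32 for Cebpg, the effectors from −0.49 for Ppp1r15a to 0.46 for Ddit4, and the serine and one-carbon enzymes from −0.24 to 0.09. The summed level of the transporters was 1021 to 1091 CPM in RA libraries and 1181 to 1812 CPM in R libraries, without overlap. Without the inhibitor the same sum was 2510 to 2556 CPM in ADO libraries and 3074 to 3132 CPM in DNT libraries, and with ATPgs 2835 to 3045 CPM in WTATPgs libraries and 3317 to 3385 CPM in WT libraries. The SEs in set 3 were wide beside these effects, 0.18 for Sars, which fell by 0.30 ± 0.02 with adenosine alone.

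**Figure D3:**
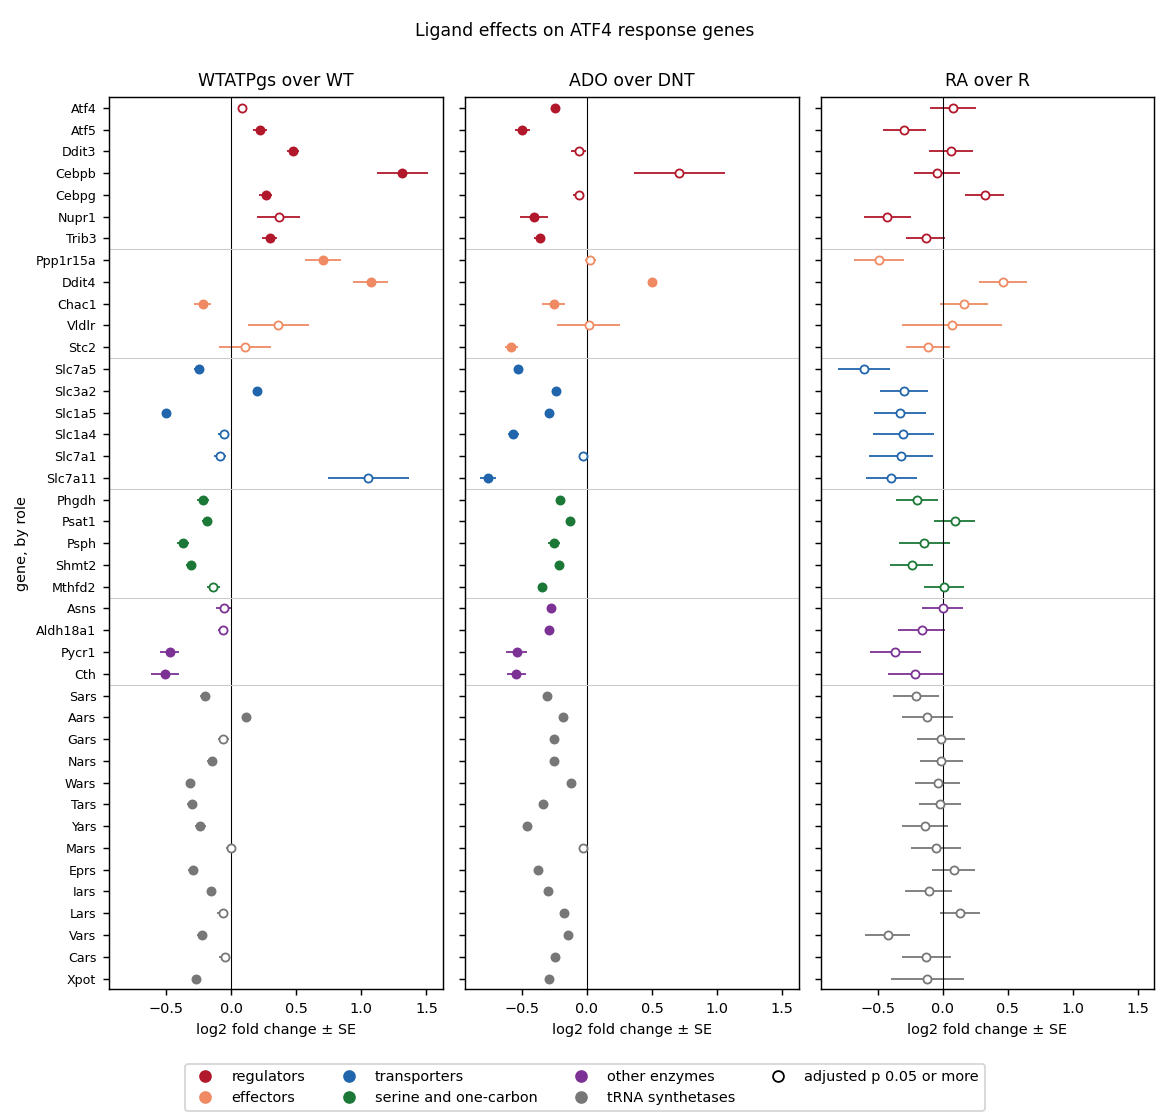
Log2 fold change with its SE (horizontal axis, the same in each panel) of each of the 41 genes for WTATPgs over WT, ADO over DNT and RA over R; filled points had adjusted p under 0.05 and open points did not. In the adenosine panel 33 filled points lie left of 0 and Ddit4 lies right of it, in the ATPgs panel 9 lie right and 18 left, and in the RA panel all 41 are open.

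ATPgs and adenosine were given at the same dose and for the same time, in separate sets with controls of their own. Their effects were compared as a difference of fold changes over 12 libraries. ATPgs was given only in set 1 and adenosine only in set 2, so ligand and set cannot be told apart in this comparison. The ATPgs effect was the more positive for 20 members and the more negative for 2, and 19 did not pass. That is 48.8% and 4.88% of members, against 8.13% and 9.12% of 15788 genes (53.7% against 17.3% in either direction). The median difference was 0.20 for members and −0.01 for all genes. Slc7a11 differed most, by 1.81 ± 0.34 (adjusted p = 0.00789). Of the regulators 6 of 7 differed, Nupr1 (0.78 ± 0.22), Atf5 (0.72 ± 0.08), Trib3 (0.67 ± 0.07), Ddit3 (0.54 ± 0.08), Cebpg (0.33 ± 0.07) and Atf4 (0.33 ± 0.04), all more positive with ATPgs. So did the effectors Ppp1r15a (0.68 ± 0.15) and Ddit4 (0.58 ± 0.16) and the transporters Slc1a4 (0.51 ± 0.06), Slc3a2 (0.44 ± 0.04) and Slc7a5 (0.29 ± 0.04). Slc1a5 was the transporter that differed in the opposite direction (−0.21 ± 0.04, adjusted p = 0.00107), being lowered more by ATPgs.

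Among the enzymes, Mthfd2 (0.22 ± 0.06), Asns (0.22 ± 0.07) and Aldh18a1 (0.23 ± 0.04) passed, and Phgdh (−0.0074 ± 0.06, adjusted p = 0.958) and the other serine enzymes did not. Of the synthetases, Aars (0.31 ± 0.04), Yars (0.23 ± 0.06), Gars (0.20 ± 0.06), Cars (0.20 ± 0.05) and Iars (0.15 ± 0.04) were less lowered, or raised, with ATPgs, Wars was lowered more by ATPgs (−0.19 ± 0.04, adjusted p = 0.00857), and Sars did not pass (0.11 ± 0.05, adjusted p = 0.13). The calls on Asns, Ddit4 and Nupr1 were each lost without any 1 WT, DNT or ADO library (adjusted p up to 0.109, 0.0855 and 0.0777). Those on Gars, Iars and Mthfd2 were lost without several of these libraries (up to 0.0739, 0.0966 and 0.0609). Fitted with all 18 libraries, 3 members were more positive with ATPgs and 0 more negative, against 157 and 145 of 16073 genes. Without WTATPgs replicate 3 the counts were 21 and 4, against 2309 and 3058 of 16248 genes. With that replicate as the only ATPgs library the median difference was 0.26 for members and −0.01 for all genes.

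**Figure D4:**
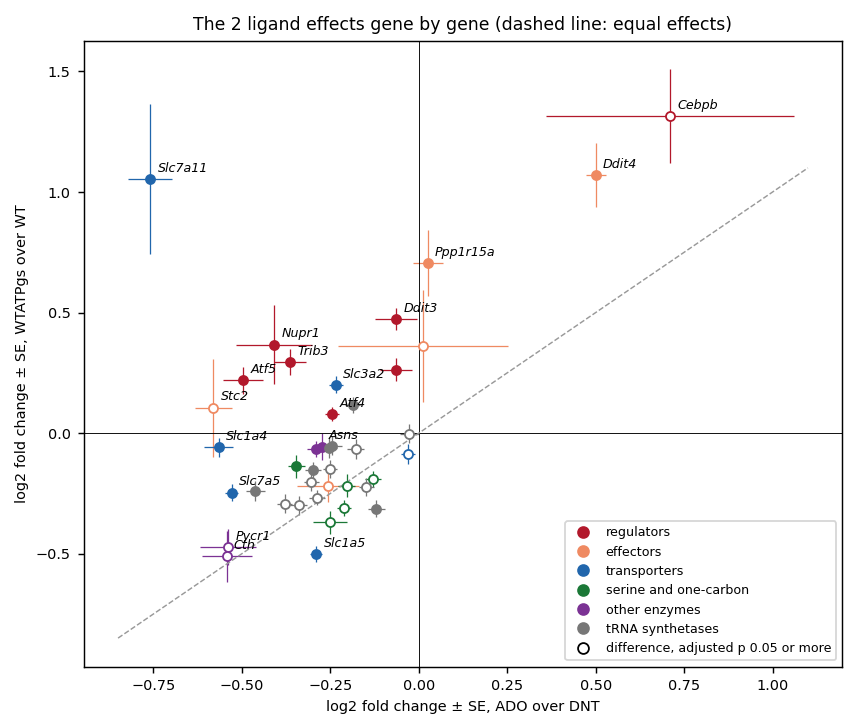
Log2 fold change of each of the 41 genes with ATPgs (vertical axis) against that with adenosine (horizontal axis), with SE bars and colours by role; filled points had adjusted p under 0.05 in the test of the difference, and the dashed line marks equal effects. Most points lie left of 0 and on or above the dashed line, Slc7a11 is farthest above it, and Slc1a5 and Wars are filled points below it.

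Gene by gene, all 18 members that fell with ATPgs also fell with adenosine, where 33 of the 41 members fell. The share of all genes that fell with both ligands was not computed, so this overlap is a description. Another 11 fell with adenosine and did not pass with ATPgs. The spread between libraries was wider in set 1 (coefficient of variation 10.6%) than in set 2 (2.74%), and in set 1 it lay largely with WTATPgs replicate 3. The chi-square per gene was 25.8 and 25.9 for pairs with that library and 1.65 between the other WTATPgs libraries. It was 1.87 to 2.36 among WT libraries, against 1.92 to 2.39 within the groups of set 2. Without WTATPgs replicate 3, Stc2, Mthfd2, Asns, Aldh18a1, Gars, Lars and Cars of these genes fell with ATPgs. Atf4, Nupr1 and Slc7a11 rose in that fit, and Slc1a4 still did not pass. Atf5, Trib3, Slc3a2 and Aars rose with ATPgs and fell with adenosine, and Ddit3, Cebpb, Cebpg and Ppp1r15a rose with ATPgs and did not pass with adenosine. Ddit4 rose with both, and Vldlr, Slc7a1 and Mars passed with neither. The 13 genes with TGATGNAA in the promoter had a median of −0.34 with adenosine (12 lower, 0 higher), and the 19 with a promoter but without these letters −0.23 (13 lower, 1 higher). With ATPgs the medians were −0.06 (2 higher, 5 lower) and −0.07 (7 higher, 7 lower). No test was made of these medians.

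Whether the adenosine effect depended on the receptor was tested as the effect with minus the effect without inhibitor. No member passed, against 4.05% of 14965 genes (0.909% higher and 3.14% lower), and 9 had an unadjusted p under 0.05 by edgeR. The median difference was 0.16 for members and −0.06 for all genes. DESeq2 called 7 members with a more positive effect under the inhibitor and 1 with a more negative one, against 539 and 848 of 13514 genes. With limma-voom the calls were 1 and 0, against 159 and 472 of 14965 genes. The smallest p were those of Eprs (0.45 ± 0.13, adjusted p = 0.0669), Stc2 (0.46 ± 0.14, adjusted p = 0.083) and Ppp1r15a (−0.52 ± 0.17, adjusted p = 0.109). For Atf4 the difference was 0.31 ± 0.14, for Asns 0.26 ± 0.13, for Slc7a5 −0.09 ± 0.19, for Phgdh −0.01 ± 0.14 and for Sars 0.08 ± 0.14. Leaving out R replicate 3 gave 9 members with a more positive effect, among them Eprs (0.43 ± 0.09, adjusted p = 0.00393) and Asns (0.32 ± 0.10, adjusted p = 0.0356), and 1 more negative, Ppp1r15a (−0.64 ± 0.10, adjusted p = 0.000284). Over all genes that fit called 1633 more positive and 1418 more negative, of 15442. Without R replicate 2 there were 5 and 0 members, against 744 and 724 of 15390 genes. Without R replicate 1 there were 2 and 1, against 147 and 635 of 15428 genes. Eprs passed without any 1 of the R libraries (adjusted p = 0.044, 0.0203 and 0.00393) and Stc2 without R replicate 1 or 3 (0.0244 and 0.0181). The inhibitor was given only in set 3, so inhibitor and set cannot be told apart in this comparison. The test also gives each gene a single spread over sets 2 and 3, so its SEs may be too small for the more variable set 3.

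Related genes outside the 41 were followed as well. Of 10 other cytosolic synthetase and scaffold genes, 8 fell and 0 rose with ATPgs, and 9 fell and 0 rose with adenosine, against 19.4% and 24.6% of all genes that fell. Both subunits of the phenylalanyl enzyme and the scaffold gene Eef1e1 had the smallest p with each ligand, Farsa (−0.54 ± 0.04), Farsb (−0.55 ± 0.06) and Eef1e1 (−0.66 ± 0.08) with ATPgs, and −0.28 ± 0.03, −0.44 ± 0.03 and −0.36 ± 0.03 with adenosine. None passed with inhibitor, where Farsa had −0.44 ± 0.16 (adjusted p = 0.0121 without R replicate 3). Of 15 genes of eIF2, its exchange factor and its kinases, 2 rose and 9 fell with ATPgs and 2 rose and 11 fell with adenosine, which is 73.3% and 86.7% called, against 37.1% and 50.2% of all genes. Eif2ak3, the gene of the kinase PERK, rose by 0.90 ± 0.06 with ATPgs and rose by 0.28 ± 0.03 with adenosine, a difference of 0.62 ± 0.07 (adjusted p = 7.31e-06). The eIF2 subunit genes Eif2s1 (−0.20 ± 0.02), Eif2s2 (−0.37 ± 0.02) and Eif2s3x (−0.27 ± 0.02) fell with adenosine, and with ATPgs Gcn1l1, a partner of GCN2, fell by 0.35 ± 0.04 and Eif2ak2, the kinase PKR, fell by 0.43 ± 0.05.

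Of 13 other amino acid transporter genes, 4 rose and 6 fell with ATPgs (30.8% and 46.2%, against 17.7% and 19.4% of all genes), and 3 rose and 6 fell with adenosine (23.1% and 46.2%, against 25.5% and 24.6%). Slc38a2, a glutamine and alanine transporter that is itself an ATF4 target, parted the ligands. Slc38a2 had 428, 412 and 392 CPM in WTATPgs libraries, against 301, 303 and 310.0 CPM in WT libraries. Slc38a2 had 262, 253 and 251 CPM in ADO libraries, against 274, 279 and 285 CPM in DNT libraries. It rose by 0.43 ± 0.04 with ATPgs (adjusted p = 0.000101) and fell by 0.13 ± 0.02 with adenosine (adjusted p = 9.45e-06), a difference of 0.57 ± 0.05 (adjusted p = 5.15e-07). With ATPgs the mitochondrial glutamate carrier gene Slc25a22 (−0.60 ± 0.07) and the glycine transporter gene Slc6a9 (−0.51 ± 0.08) fell. With adenosine the taurine transporter gene Slc6a6 (−0.38 ± 0.02) and Slc6a9 (−0.61 ± 0.06) fell, and Slc38a9, a lysosomal arginine sensor, rose by 0.60 ± 0.06. With inhibitor none of 11 tested passed, Slc6a9 having the smallest p (−0.72 ± 0.20, adjusted p = 0.139; 0.0215 without R replicate 3).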

How the data were processed

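The authors deposited 3 tables, each with whole-number counts of reads per Ensembl gene for 6 libraries. Reads had been aligned with HISAT2 2.1.0 to GRCm38, per the submitters' processing notes, and total RNA was isolated with Trizol, per the labels. Which tool counted the reads, with which annotation and with or without strand, is not given in the sources used here. Symbols, coordinates and lengths (1 coding transcript per gene) came from GENCODE M21, which named 99.7%, 99.6% and 99.6% of the IDs in the tables.

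Groups came from the sample titles. Within each table edgeR 4.0.16 (R 4.3.3) was run with TMM scaling, filterByExpr and its robust quasi-likelihood test, and p-values were adjusted by Benjamini-Hochberg over every gene tested, with a threshold of 0.05. Differences between effects used the 12 libraries of both sets and gave each gene a single spread over both. The common coefficient of variation was 14.2% for the inhibitor difference and 7.44% for the ligand difference. The SE is the size of the log2 fold change divided by the square root of F. Alternatives were DESeq2 1.42.0, limma-voom (limma 3.58.1), RLE factors, scaling to library size, other filters, a joint fit of the 18 libraries, a replicate block and leaving out each library. The fits were also run on counts simulated with a single spread per gene for all libraries. That run cannot show how they behave with outlying libraries or with sets of unequal spread. The spread between libraries, as edgeR's common coefficient of variation, came to 10.6% for set 1, 2.74% for set 2 and 19.6% for set 3. Set 2 could therefore show smaller changes than set 1 or set 3. In set 1 the spread lay largely with WTATPgs replicate 3. No 2 libraries were duplicates.

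Values per library were given for Atf4, Asns, Slc7a5, Phgdh and Sars, and for the 8 members of largest change among those that passed and reached 5 CPM on average in either group. Other genes given per library were chosen after their values were seen. A few genes of the related lists are not reported here by name. The members and lists were chosen with earlier results of these data known. Promoters came from RefSeq (GRCm38.p6), and figures were drawn with matplotlib 3.10.9 in Python 3.11.15.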

Additional observations from a re-analysis of the deposited data

Results flagged for a closer look

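In 3 genes near the response, but not among its 41 members, the adenosine effect differed with and without the inhibitor by the test of the difference itself. Castor2, a homologue of the arginine sensor of mTORC1, had a difference of −0.81 ± 0.16 (adjusted p = 0.0151), its effect being −0.35 ± 0.18 with and 0.45 ± 0.07 without inhibitor. The arginine sensor gene Castor1 had −0.97 ± 0.20 (adjusted p = 0.0167), with effects of 0.12 ± 0.20 and 1.08 ± 0.12. The kinase gene Eif2ak2 had −0.66 ± 0.16 (adjusted p = 0.0347), with effects of −0.64 ± 0.17 and −0.00031 ± 0.03; the first of these passed without R replicate 2 or 3 (adjusted p = 0.0244 and 0.0142). The inhibitor was given only in set 3. The test of the difference gives each gene a single spread over sets 2 and 3, though set 3 varied more. Its SE was below that of the set 3 effect alone for Castor2 (0.16 against 0.18) and Eif2ak2 (0.16 against 0.17). The adjusted p-values of the 3 differences may therefore be too small. Each call was lost with library size scaling (adjusted p = 0.0868, 0.142 and 0.126) and under leaving out some libraries, with adjusted p up to 0.0584 for Castor2, 0.0601 for Castor1 and 0.105 for Eif2ak2. All 3 were also lost with the replicate number as a block.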

How the results depend on the processing

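Fitting all 18 libraries together gave 7 falls with ATPgs, against 1498 of 16073 genes. Adenosine gave 2 rises and 16 falls, against 1439 and 870 genes, and under inhibitor 2 and 3, against 885 and 893. The effect was more positive with than without inhibitor in 2 members, against 391 genes. With ATPgs 3 members were more positive than with adenosine and 0 more negative, against 157 and 145 genes. This fit gives each gene a single spread over all sets. Rises with adenosine were 2 by limma-voom, with or without library weights, against 3670 and 3657 of 14512 genes. With weights, added after the data were seen, 2 members rose and 8 fell under inhibitor, against 1323 and 1531 of 12873 genes. The effect with minus without inhibitor was then called higher in 16 members and lower in 1, against 1763 and 1672 of 14965 genes. For that difference DESeq2 called 7 and 1, against 539 and 848 of 13514 genes, and limma-voom 1 higher, against 159 genes. With WTATPgs replicate 3 alone, also added after the data were seen and assuming that this library varied like the other group, the member median was −0.04. Leaving out 1 library gave 7 to 12 rises and 14 to 26 falls with ATPgs, 1 to 2 and 32 to 33 with adenosine, 0 to 0 and 0 to 5 under inhibitor, 0 to 9 and 0 to 1 for the inhibitor difference, and 14 to 21 and 2 to 4 for the ligand difference. Over all genes the same fits gave 1778 to 4186 rises and 2080 to 4195 falls with ATPgs, and 3389 to 3526 and 3292 to 3379 with adenosine. Under inhibitor they gave 5 to 725 and 31 to 994. The differences gave 44 to 1633 and 230 to 1418 for the inhibitor, and 913 to 2309 and 1030 to 3058 between ligands. Over the 41 members in 5 comparisons and the related genes given in the text, 259 values in all, 155 of 4522 recomputed values changed sign, 0 of them for a value that had passed. Among values given in the text, Stc2 with ATPgs was −0.13 (library weights). Asns with ATPgs was 0.11 (WTATPgs replicate 3 alone). Slc7a1 with adenosine was 0.016 (scaling to library size). Mars with adenosine was 0.019 (scaling to library size). Eif2ak2 with adenosine was 0.046 (scaling to library size), 0.0037 (no filter), 0.0073 (all 18 libraries together) and 3.8e-05 (the replicate block). Vldlr with adenosine was −0.042 (limma-voom), −0.0074 (the replicate block) and −0.076 (library weights). Asns under inhibitor was 0.0033 (DESeq2), 0.0032 (RLE factors), 0.13 (scaling to library size), 0.015 (no filter), 0.00035 (limma-voom), 0.023 (all 18 libraries together) and 0.0016 (the replicate block). Atf4 under inhibitor was −0.059 (library weights). Phgdh for the inhibitor difference was 0.021 (DESeq2), 0.021 (RLE factors), 0.083 (scaling to library size), 0.0078 (no filter), 0.024 (all 18 libraries together) and 0.019 (library weights). Slc7a5 for the inhibitor difference was 0.19 (library weights). Phgdh for the ligand difference was 0.00064 (DESeq2), 0.00059 (RLE factors), 0.00073 (the 1 CPM filter) and 0.11 (WTATPgs replicate 3 alone). With 1 library left out the ranges of those that changed sign were Stc2 with ATPgs −0.17 to 0.24, Eif2ak2 with adenosine −0.021 to 0.014, Ppp1r15a with adenosine −0.0087 to 0.054, Vldlr with adenosine −0.17 to 0.25, Asns under inhibitor −0.071 to 0.057, Xpot under inhibitor −0.41 to 0.15, Atf4 under inhibitor −0.012 to 0.18, Castor1 under inhibitor −0.013 to 0.22, Phgdh for the inhibitor difference −0.080 to 0.044, Slc7a5 for the inhibitor difference −0.24 to 0.16, Phgdh for the ligand difference −0.077 to 0.031. The causes of these changes were not tested.

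The samples share only replicate numbers, and same-numbered pairs correlated at −0.02, 0.00072 and −0.02 in set 1, 0.01, 0.02 and −0.00018 in set 2, and 0.05, −0.20 and −0.13 in set 3. With the replicate block 8 members rose and 17 fell with ATPgs, 1 and 33 with adenosine and 0 and 0 under inhibitor, and the differences gave 0 and 0 with minus without inhibitor and 19 and 2 between ligands. Over all genes the calls were 2304 and 2488 of 15124, 3767 and 3631 of 14512, and 29 and 105 of 12873. For the 2 differences they were 19 and 141 of 14965, and 1068 and 1147 of 15788. Scaling to library size only moved the median of all genes to 0.05, 0.05 and 0.09 in the ATPgs, adenosine and inhibitor comparisons, with 11 rises and 16 falls, 1 and 32, and 0 and 0 among members. Over all genes these were 3226 and 2331 of 15124, 4418 and 2850 of 14512, and 25 and 48 of 12873. The spread of set 3, with its coefficient of variation of 19.6%, limits every statement on the inhibitor.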

Other observations

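Of 19 genes through which mTORC1 senses amino acids, 6 rose, 3 fell and 10 did not pass with ATPgs (47.4% called, against 37.1% of all genes), and 6 rose, 9 fell and 4 did not pass with adenosine (78.9%, against 50.2% of all genes). No test of the list was made. Sesn3, a sestrin that restrains mTORC1, rose by 0.69 ± 0.06 with ATPgs and rose by 0.74 ± 0.03 with adenosine. Its levels were 164, 175 and 194 CPM in WTATPgs libraries, against 110.5, 111 and 109.6 CPM in WT libraries, and 215, 204 and 206 CPM in ADO libraries, against 126, 123 and 124 CPM in DNT libraries, with no overlap in either set. The arginine sensor gene Castor1 rose by 1.08 ± 0.12 and the leucine sensor gene Sesn2, an ATF4 target, fell by 0.25 ± 0.03 with adenosine. With ATPgs the GATOR1 gene Nprl2 (0.50 ± 0.08) and Sesn1 (0.36 ± 0.07) rose. With inhibitor none of the 19 passed, and Sesn3 had 0.45 ± 0.22 (adjusted p = 0.454). Between ligands the differences of Rragc (0.21 ± 0.06) and Sesn2 (0.17 ± 0.05) passed, and both calls were lost without any 1 of several libraries (adjusted p up to 0.0712 and 0.132).

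Of 17 mitochondrial synthetases, 1 rose and 4 fell with ATPgs (29.4% called, against 37.1% of all genes), and 2 rose and 4 fell with adenosine (35.3%, against 50.2%). The shares that fell, 23.5% in both cases, are near those of all genes, 19.4% with ATPgs and 24.6% with adenosine. Sars2 (−0.34 ± 0.06) and Mars2 (−0.23 ± 0.05) fell with ATPgs, and Mars2 (−0.41 ± 0.05) and Iars2 (−0.17 ± 0.03) with adenosine. Of other folate genes, 4 of 12 rose and 3 fell with ATPgs (58.3% called), and 5 of 11 rose and 3 fell with adenosine (72.7%), against 37.1% and 50.2% of all genes. With ATPgs the cytosolic serine hydroxymethyltransferase gene Shmt1 (−0.81 ± 0.14) and the mitochondrial folate carrier gene Slc25a32 (−0.58 ± 0.06) fell. In set 2 Slc25a32 had 8.03, 13.5 and 13.7 CPM in ADO libraries, against 4.35, 4.13 and 6.34 CPM in DNT libraries. Its level in WT libraries was far higher, at 55.3, 55.6 and 52.4 CPM. The count table of set 1 listed 52550 genes and those of sets 2 and 3 listed 53465. Whether Slc25a32 was counted alike in them was not tested, so its 2 ligand effects are not comparable with certainty. With adenosine the thymidylate synthase gene Tyms (0.46 ± 0.05) rose and Aldh1l2, of mitochondrial folate oxidation, fell (−0.91 ± 0.11). Gldc, of the glycine cleavage system, rose in all 3 ligand comparisons, by 0.60 ± 0.16 with ATPgs, 1.04 ± 0.13 with adenosine and 1.33 ± 0.23 with adenosine under inhibitor (adjusted p = 0.0228). The ATPgs call on Gldc was lost without any 1 WT library (adjusted p = 0.0539 to 0.0776), and the call under inhibitor without R replicate 1 or any 1 RA library (0.125 to 0.164). The ATPgs call on Mars2 was lost without WTATPgs replicate 1 (adjusted p = 0.0526).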
